A study of Mus musculus with 21 samples.

Results

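The 3 PIWI proteins of the mouse, Piwil1, Piwil2 and Piwil4, and 7 factors that make their piRNAs or work beside them, Mov10l1, Pld6, Asz1, Gtsf1, Mael, Ddx4 and Henmt1, were followed in RNA-seq of male germ cells. These 10 genes were taken by symbol from the 24495 gene rows of the read count tables, and all 10 passed the filter on low counts in every comparison. The study asked what loss of Tex15 does to gene expression in developing male germ cells. It holds 21 libraries, 3 biological replicates for each of 7 groups: Tex15-/- (KO) and Tex15+/- (HT) cells at embryonic day 16.5 (E16.5), KO and HT cells at E18.5, and KO, HT and wild type (WT) cells at postnatal day 2.5 (D2.5). All groups are on a mixed strain background and carry the Oct4-GFP reporter by which the cells were sorted. The embryonic controls are heterozygotes, with 1 mutant Tex15 allele, and how many animals made up a library is not given in the sources used here.

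piRNAs are small RNAs that guide PIWI proteins to transposon transcripts and, in the nucleus, to transposon DNA. In fetal male germ cells PIWIL2 (MILI) binds piRNAs in the cytoplasm and cuts transposon RNA, and PIWIL4 (MIWI2) carries piRNAs into the nucleus, where new DNA methylation is laid down on transposons before birth. TEX15 is a nuclear protein that works with PIWIL4 in that methylation, and Tex15 mutant males are sterile with active transposons. PIWIL1 (MIWI) acts later, in meiotic and postmeiotic germ cells.

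Of the 10 genes, Gtsf1, which encodes a small zinc finger cofactor that PIWI proteins need to cut their targets, was lower in KO than in HT cells, and this was at E18.5, where its mean level was 45.0% of that in HT cells. At that age 2.14% of all genes were called between KO and HT cells, 0.0659% as lower. The other 9 were not called between KO and HT cells at any age, where 0.00618% of genes were called at E16.5 and 0.153% at D2.5. The spread between replicates was smallest at E18.5, with a biological coefficient of variation over all genes of 17.9%, against 37.3% at E16.5 and 55.4% at D2.5, so changes of the same size were harder to call at those ages. Between ages more of the 10 were called. Piwil4 and Piwil2 fell with age in both genotypes, and Asz1 and Ddx4 were lowest at E18.5 and higher again at D2.5.

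The promoter sequences of Gtsf1, the gene that was lower in KO cells, of Asz1, the gene with the largest return at D2.5, and of Mael, which was called at no step and holds all 3 motifs searched, are shown to compare the bases in front of the start site. They are taken from the RefSeq promoter table of build GRCm38.p6 (the deposited counts were made on mm9) and run 5′ to 3′ on the gene's own strand, all minus, up to the outermost annotated start of the gene. Capitals mark matches, on either strand, of 3 motifs: CACGTG (the E-box that MYC and MAX proteins bind; its own reverse complement), CCAAT (the NF-Y box; ATTGG on the other strand) and GCGGGA (an E2F type site; TCCCGC on the other strand). No marked matches overlap. Gtsf1 lies at chr15:103430471-103430677, Asz1 at chr6:18109062-18109311 and Mael at chr1:166238748-166238994.
Gtsf1: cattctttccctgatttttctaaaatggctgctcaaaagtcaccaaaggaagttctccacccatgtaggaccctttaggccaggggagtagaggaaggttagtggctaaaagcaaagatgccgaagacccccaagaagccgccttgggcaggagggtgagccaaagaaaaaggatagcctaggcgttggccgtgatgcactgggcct
Asz1: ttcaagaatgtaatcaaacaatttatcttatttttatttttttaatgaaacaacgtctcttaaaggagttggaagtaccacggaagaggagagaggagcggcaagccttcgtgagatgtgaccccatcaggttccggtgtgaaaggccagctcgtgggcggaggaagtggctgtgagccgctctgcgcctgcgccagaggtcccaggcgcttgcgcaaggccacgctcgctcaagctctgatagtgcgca
Mael: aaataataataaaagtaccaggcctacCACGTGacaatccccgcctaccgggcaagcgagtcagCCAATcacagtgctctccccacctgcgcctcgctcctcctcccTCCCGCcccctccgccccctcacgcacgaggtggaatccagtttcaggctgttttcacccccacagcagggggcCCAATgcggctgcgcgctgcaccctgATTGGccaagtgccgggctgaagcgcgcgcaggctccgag
The Gtsf1 stretch (207 bases) and the Asz1 stretch (250 bases) hold none of the 3 motifs, and the Mael stretch (247 bases) holds CACGTG 1 time, CCAAT 3 times and GCGGGA 1 time. In the table's windows of 300 bases, 9 of the 10 genes had an entry (not Piwil2). CACGTG was in 5 of these 9 (Piwil1, Mov10l1, Pld6, Mael and Ddx4), against 7.15% of all 32851 windows. CCAAT was in the windows of the same 5 genes, against 37.4% of all, and GCGGGA in 2 of 9 (Mael and Ddx4), against 20.0%. The CpG count of the 9 windows, relative to that expected from their C and G, was 0.531 to 0.978. The median of all windows was 0.384, with quartiles of 0.176 and 0.750. G and C made up 52.7% to 75.3% of the bases of the 9 windows, against a median of 52.7% and quartiles of 45.7% and 61.7%. Some of the 9 thus lay within the quartiles of all windows in each measure. CACGTG itself holds a CpG, and the part of base content in these shares was not tested. A match is a run of letters and not a shown binding site.

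Each library held 6063632 to 11884109 counts in gene rows, fewest at D2.5 (6063632 to 7391401), and levels are given as CPM, a library's counts of a gene relative to its total of gene counts, scaled by trimmed mean of M values (TMM) factors over all 21 libraries. Tex15 itself averaged 3.41, 3.01 and 20.9 CPM in KO cells at the 3 ages, against 980, 779 and 1872 CPM in HT cells and 4038 CPM in WT cells at D2.5, so it was low in all groups labelled KO. The 16 germ cell markers summed to 1962 to 8039 CPM over the libraries. Among them Dazl was between 412 and 4687 CPM in every library, while Nanos2, Nanos3, Pou5f1 and Dppa3 were at 0 in some. Pou5f1, the Oct4 gene, was at 0 to 9.59 CPM in the D2.5 libraries. The summed levels of the other marker lists were 70.3 to 345 CPM for Sertoli, 12.8 to 55.7 CPM for Leydig, 36.4 to 815 CPM for stromal, 71.1 to 189 CPM for endothelial and 26.9 to 108 CPM for macrophage and blood genes. Some libraries stood apart on the first principal component of their age. At E16.5 (78.5% of the variance) HT replicate 1 lay at one end and replicate 3 of both genotypes at the other. At D2.5 KO replicate 3 lay apart, with the highest Sertoli sum of that age (345 CPM), while KO replicate 2 had the highest stromal sum (815 CPM). The p-values measure the spread between the 3 replicates of a group, which the series calls biological triplicates.

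**Figure D1:**
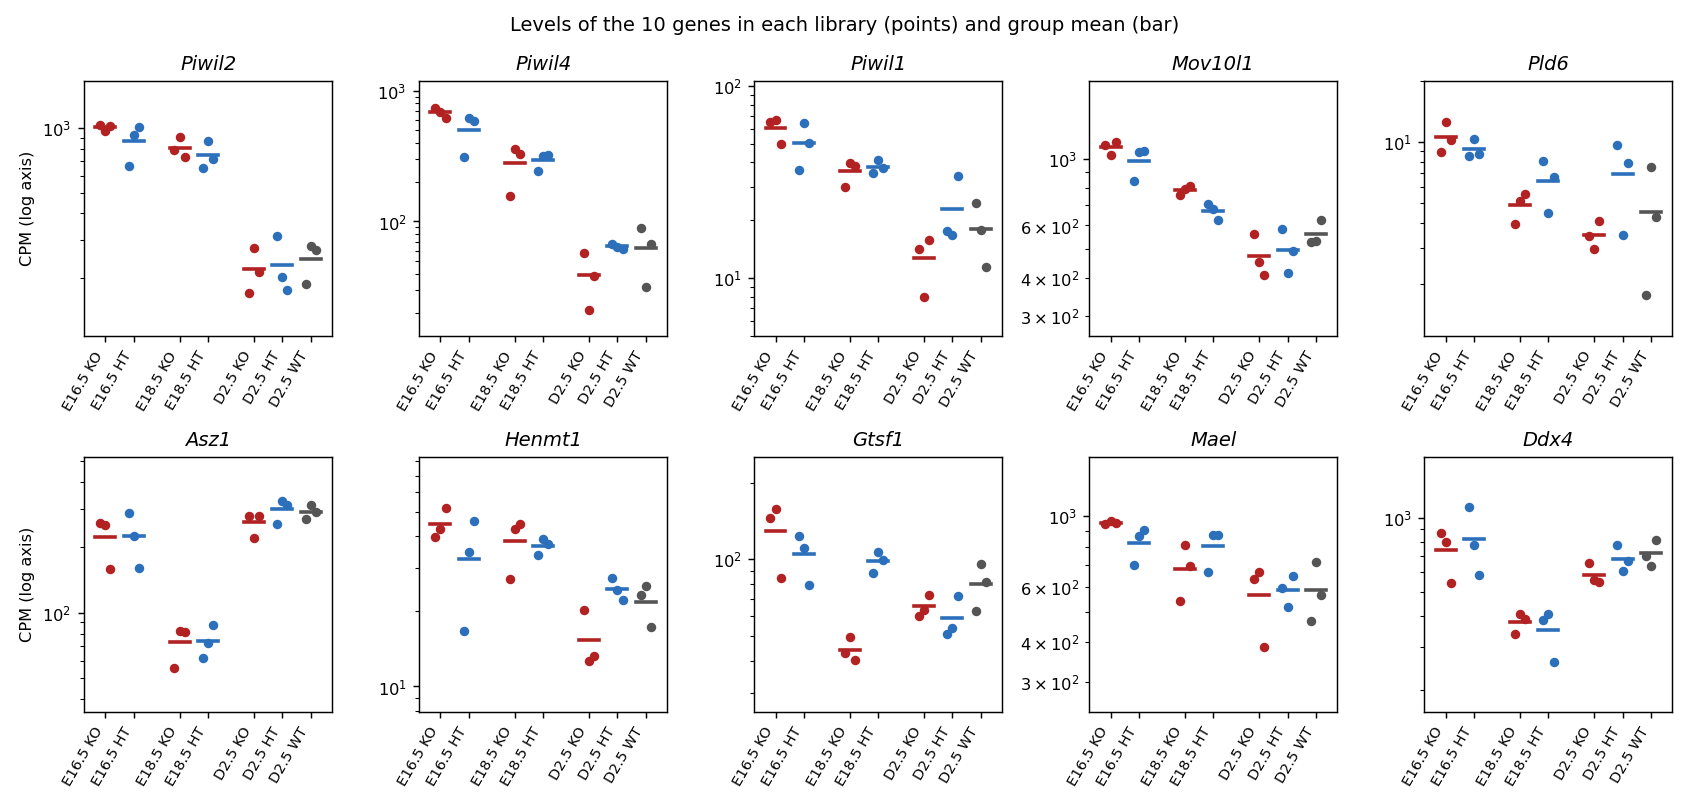
Level of each of the 10 genes in CPM (log axis) in KO and HT cells of the 3 ages and in WT cells at D2.5. Points are the 3 libraries of a group and bars their mean. At E18.5 the Gtsf1 points of KO cells (40.3 to 49.8 CPM) lie below those of HT cells (88.7 to 107 CPM), while the KO and HT points of the other genes, Mov10l1 excepted, overlap at that age.

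Per kilobase of exon, which allows genes to be set beside each other, Mael, which encodes an HMG box protein of the germ granule, had the highest mean level in all 7 groups, and Pld6, the mitochondrial nuclease that cuts piRNA precursors, the lowest. In HT cells at E18.5 the order of mean levels was Mael (464 ± 69.1 CPM per kb, SD, n = 3), Mov10l1 (160 ± 10.2), Piwil2 (141 ± 21.3), Ddx4 (117 ± 26.3), Gtsf1 (70.8 ± 6.70), Piwil4 (54.7 ± 8.26), Asz1 (26.2 ± 4.60), Henmt1 (13.7 ± 1.06), Piwil1 (8.71 ± 0.669) and Pld6 (3.66 ± 1.03). The ranges of neighbours in that order overlapped for Mov10l1 and Piwil2 and for Piwil2 and Ddx4, and for no other neighbours. In KO cells at E18.5 the order was the same but for Gtsf1 (31.9 ± 3.53 CPM per kb), which stood below Piwil4 (52.0 ± 20.1) and overlapped in range with both Piwil4 and Asz1 (25.9 ± 5.39). Exon lengths come from the GENCODE M21 annotation of GRCm38, and levels per kb carry any difference between it and the annotation behind the counts.

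Gtsf1 (GRCm38 chr15:103402405-103430470, minus strand) was first compared between genotypes at E18.5. Its level was 42.8, 49.8 and 40.3 CPM in KO replicates 1 to 3, against 88.7, 107 and 99.5 CPM in HT replicates 1 to 3. All KO libraries lay below all HT libraries, as for 5.68% of genes, and the gap between the groups was wider than the spread within either. The log2 fold change was -1.15 (SE 0.15, 95% interval -1.48 to -0.82, edgeR quasi-likelihood adjusted p = 0.000554). Of 18199 genes tested, 2.14% were called in either direction and 0.0659% were called lower, and 0.165% of genes had a lower fold change than Gtsf1. Leaving out any 1 library gave -1.25 to -1.09. With all counts of the table as library sizes it was -1.34, in a fit where the median of all genes moved by -0.19. Against Mael in the same library, Gtsf1 stood at 0.0662 ± 0.0117 in KO cells and 0.123 ± 0.00967 in HT cells (ratio of CPM, SD, n = 3). In sorted bulk samples, fewer cells with the transcript and less transcript per cell cannot be told apart.

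At the other ages the Gtsf1 groups overlapped. At E16.5 the level was 146, 158 and 84.4 CPM in KO cells, against 123, 111 and 79.4 CPM in HT cells (log2 fold change 0.32, SE 0.26). Replicate 3 was the lowest library in both genotypes there. At D2.5 it was 60.2, 63.3 and 72.6 CPM in KO cells, 50.9, 53.6 and 71.8 CPM in HT cells and 62.8, 95.7 and 81.6 CPM in WT cells. KO against HT gave 0.15 (SE 0.29, interval -0.46 to 0.75) and KO against WT gave -0.29 (SE 0.29, interval -0.90 to 0.32), so a change of the E18.5 size lies outside both intervals at D2.5. The KO effect at E18.5 less that at E16.5 was -1.45 (SE 0.33, unadjusted p = 0.000297, edgeR adjusted p = 1.00), in a test that called 0% of 18815 genes, with 0.829% (156 genes) at an unadjusted p under 0.05 and 0 called by DESeq2 or limma-voom. The KO effect at D2.5 less that at E18.5 was 1.30 (SE 0.34, edgeR adjusted p = 0.174; 0.0531% of genes called), and DESeq2 gave an adjusted p of 0.0151. A difference of the Gtsf1 effect between ages was thus not called by edgeR.

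Other values moved with genotype at E18.5 beside Gtsf1. Pou5f1, which encodes the Oct4 factor behind the sorting reporter, was also lower, at 43.8, 71.7 and 52.8 CPM in KO cells against 89.8, 111 and 94.9 CPM in HT cells (log2 fold change -0.81, edgeR adjusted p = 0.0307). Kit, a receptor of germ cells, was higher, at 97.7, 106 and 103 CPM in KO cells against 62.1, 67.9 and 66.0 CPM in HT cells (0.65, edgeR adjusted p = 0.0201). These were the 2 of 16 germ cell markers called. Of the 16, 13 had a fold change below 0 and 3 above 0, with a median of -0.20, against -0.0044 for all genes. The germ cell markers summed to 1962 to 2162 CPM in KO cells and 2097 to 2838 CPM in HT cells, ranges that overlap. The 12 macrophage and blood markers summed to 85.3 to 105 CPM in KO cells and 47.5 to 52.1 CPM in HT cells. Of the 6 of these markers tested, 2 were called higher, Mrc1 (48.2, 48.0 and 55.9 CPM in KO cells, against 16.8, 15.2 and 11.2 CPM in HT cells) and Adgre1. Of 7 endothelial markers tested, Tek was called higher (37.8 to 51.7 CPM in KO cells, against 21.6 to 29.8 CPM in HT cells), with list sums of 132 to 189 CPM in KO cells and 140 to 150 CPM in HT cells. None of the Sertoli, Leydig or stromal markers tested was called, and the Leydig sums were 37.6 to 52.9 CPM in KO cells and 34.2 to 37.1 CPM in HT cells. Of the 6 macrophage and blood markers tested, 4 had all KO libraries above all HT libraries, and 1 had a fold change below 0. Ptprc was at 3.76, 3.34 and 4.02 CPM in KO cells, against 2.35, 2.68 and 2.57 CPM in HT cells. Alas2 was at 21.2, 22.7 and 25.1 CPM in KO cells, against 20.1, 20.9 and 19.8 CPM in HT cells. The globin genes of the macrophage and blood list were at 0 in every library, and C1qa averaged 0.530 CPM in KO and 0.374 CPM in HT cells, C1qb 0.309 and 0.398 CPM. The part of these differences in the Gtsf1 result was not tested.

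**Figure D2:**
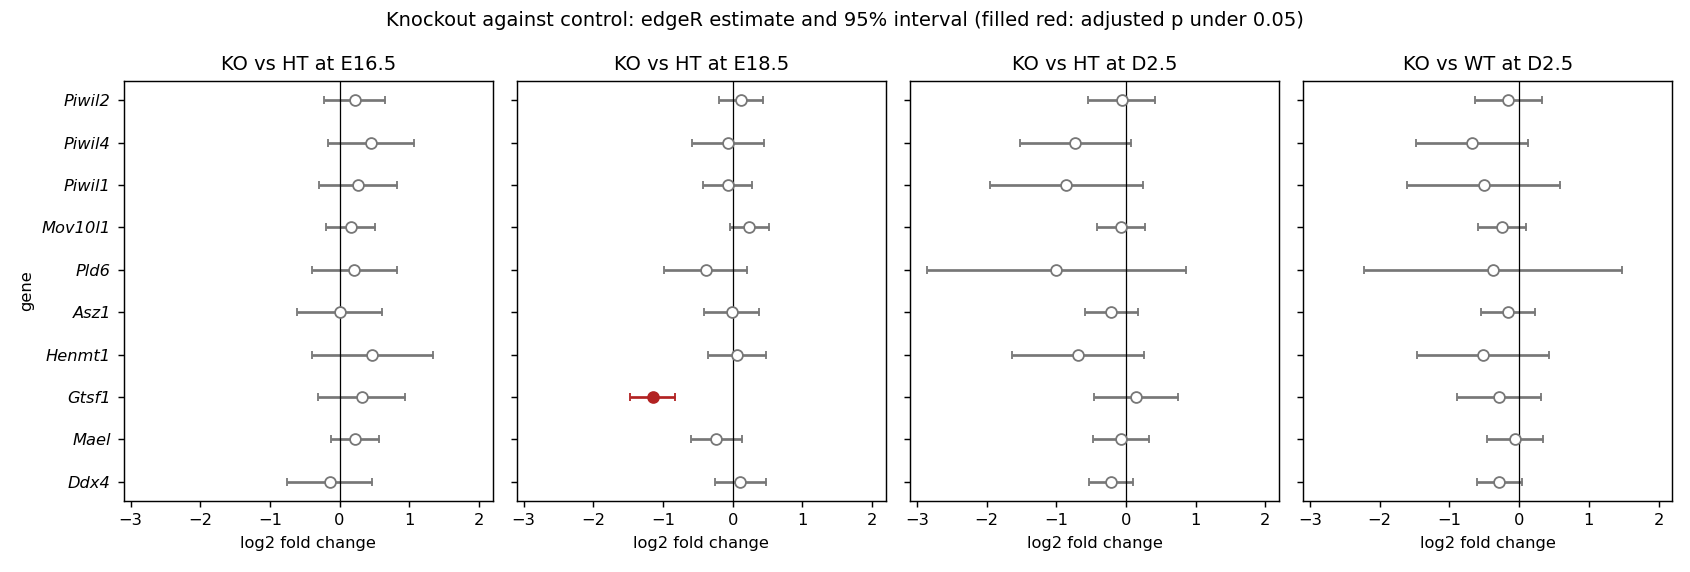
Log2 fold change of the 10 genes in KO against HT cells of each age and in KO against WT cells at D2.5, as edgeR estimates with 95% intervals. The filled red point, Gtsf1 at E18.5 (-1.15), is the one with an adjusted p under 0.05, and the intervals of the other genes reach across 0.

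The remaining 9 genes were set side by side in KO and HT cells at E18.5. Their log2 fold changes ran from -0.39 (Pld6) to 0.24 (Mov10l1), with edgeR adjusted p of 0.721 or more, and the median over all 10 genes was -0.04, against -0.0044 for all genes tested. The widest interval among them was that of Pld6, -0.98 to 0.20, at 41 to 84 counts per library. Mov10l1, the helicase that feeds precursor RNA to processing, was at 758, 794 and 814 CPM in KO cells, against 708, 679 and 623 CPM in HT cells. Its groups did not overlap, with KO above HT, as for 8.08% of all genes, but its fold change of 0.24 (interval -0.04 to 0.52) was not called. Piwil4 was at 156, 356 and 329 CPM in KO cells, against 244, 316 and 324 CPM in HT cells. KO replicate 1 was the lowest of the 6 libraries for Piwil4, Piwil1, Pld6, Mael, Asz1 and Henmt1, and the same library lay farthest out on the first principal component at E18.5 (36.8% of the variance).

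At E16.5 none of the 10 genes was called between KO and HT cells, in a comparison that called 0.00618% of 16185 genes (Tex15 alone), with 1.17% (190 genes) at an unadjusted p under 0.05 and 6 called by DESeq2. Fold changes were above 0 for 9 of the 10 genes (median 0.22, against -0.01 for all genes), and unadjusted p was above 0.05 for all 10. Asz1, counted among these 9, was at 4.9e-05, and at -0.18 to 0.22 when 1 library was left out. Piwil4 was at 740, 690 and 623 CPM in KO cells, against 312, 614 and 581 CPM in HT cells (0.45, interval -0.17 to 1.07). Mael was at 946, 963 and 954 CPM in KO cells, against 701, 868 and 907 CPM in HT cells (0.22, interval -0.13 to 0.56). In both of them every KO library lay above every HT library, which held for 3.23% of all genes. HT replicate 1 was the lowest of the 6 libraries for Piwil1, Piwil2, Piwil4, Mov10l1, Pld6, Mael and Henmt1 and the highest for Asz1 and Ddx4, and it held the highest cell cycle sum of that age (5330 CPM, against 2076 to 3214 CPM in KO cells). Without it the Piwil4 value was 0.21, and its groups still did not overlap.

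At D2.5 none of the 10 was called in KO against HT cells (0.153% of 14367 genes called), in KO against WT cells (0.216%) or in HT against WT cells (0.00696%). At an unadjusted p under 0.05 there were 1036 (7.21%), 1116 (7.77%) and 488 (3.4%) genes in these 3 comparisons, and none of the 10 among them. Piwil4 was at 57.7, 21.2 and 38.5 CPM in KO cells, 67.4, 63.8 and 62.0 CPM in HT cells and 88.8, 31.8 and 66.9 CPM in WT cells. KO lay below HT in all libraries (-0.73, SE 0.39) and overlapped with WT (-0.68, SE 0.39). Henmt1, the enzyme that methylates piRNA 3′ ends, was at 20.2, 12.6 and 13.3 CPM in KO cells, 27.3, 24.5 and 22.2 CPM in HT cells and 23.2, 25.2 and 17.3 CPM in WT cells. Piwil1 was at 14.2, 7.98 and 15.9 CPM in KO cells, 17.6, 16.9 and 34.2 CPM in HT cells and 24.6, 17.9 and 11.5 CPM in WT cells. These were the 3 genes of the 10 whose KO libraries all lay below the HT libraries (5.83% of all genes did), and none of the 10 did so against WT (6.17%). Without KO replicate 2, the library with the highest stromal sum and the lowest Piwil4 level, the Piwil4 value against HT was -0.42. It was -1.10 without KO replicate 1 and -0.71 without KO replicate 3, and none of the 10 was called without any 1 library.

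Of the remaining genes at D2.5, Piwil2 averaged 221 ± 53.4 CPM in KO cells, 231 ± 73.6 CPM in HT cells and 246 ± 51.5 CPM in WT cells (SD, n = 3 each). Mov10l1 averaged 475 ± 77.9, 498 ± 82.8 and 563 ± 55.7 CPM in the same groups, and Ddx4 588 ± 60.5, 682 ± 85.2 and 716 ± 89.4 CPM. The Ddx4 interval for KO against WT, -0.60 to 0.03, and that of Mov10l1, -0.60 to 0.10, exclude a 2-fold change in either direction. Pld6, with 10 to 53 counts per library, had an interval of -2.85 to 0.86 against HT, so a 2-fold change in it was not detectable at this depth.

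**Figure D3:**
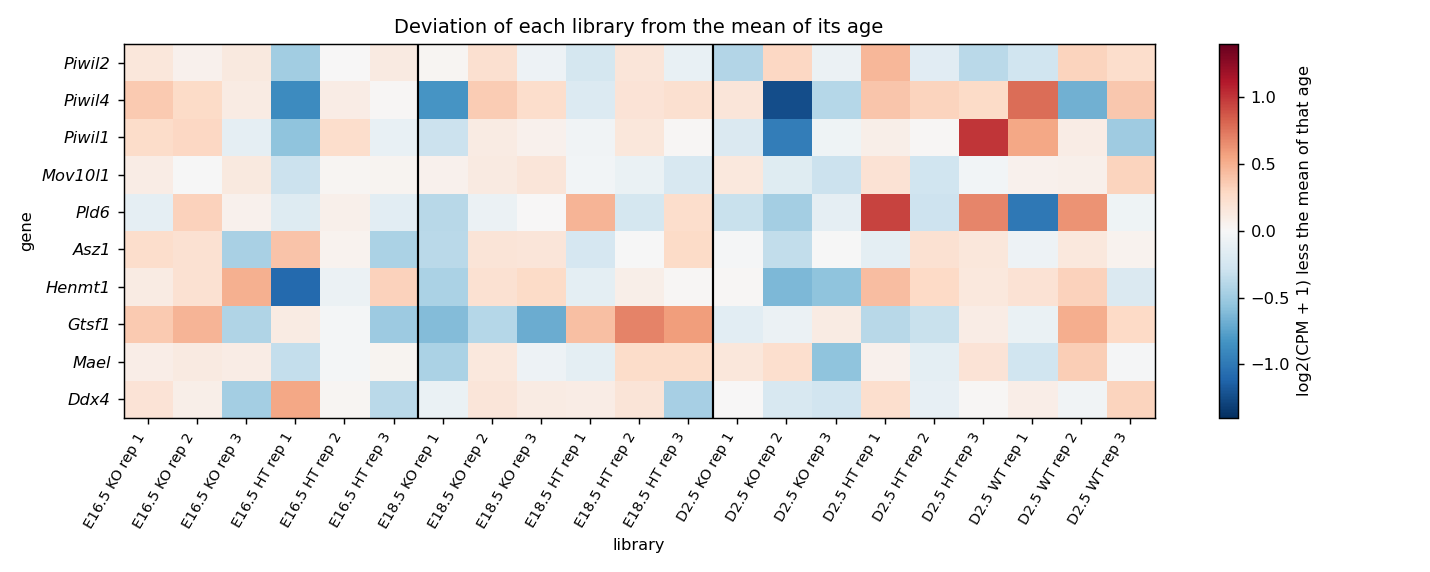
Deviation of log2(CPM + 1) from the mean of that age for the 10 genes (rows) in the 21 libraries (columns), red above and blue below the mean, with lines between ages. Gtsf1 is below its age mean in the 3 KO libraries of E18.5 and above it in the 3 HT libraries, and E16.5 HT replicate 1 stands apart in most rows.

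The change with age was then taken in KO and in HT cells, each as E18.5 against E16.5 and D2.5 against E18.5 within one fit of 18 libraries. Age and anything else that differed between the collections cannot be told apart. At E18.5 against E16.5, 4 of the 10 genes fell in KO cells (4.54% of 18815 genes called, 2.9% lower and 1.65% higher) and 3 in HT cells (13.2% called, 8.39% lower and 4.81% higher), and none rose. At D2.5 against E18.5, 5 fell and 2 rose in KO cells (55.2% called, 34.2% lower and 21.1% higher), and 4 fell and 2 rose in HT cells (54.8% called, 33.4% lower and 21.4% higher). The median of all genes moved at this step by -0.54 in KO and -0.51 in HT cells, so values relative to that median are also given where they end or make a call or move a called value by over 1.5 times.

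Among the PIWI genes, Piwil4 fell at both steps in KO cells and at the second step in HT cells. Its mean was 684 ± 58.9, 280 ± 108 and 39.1 ± 18.3 CPM in KO cells at the 3 ages, and 502 ± 166, 295 ± 44.5 and 64.4 ± 2.74 CPM in HT cells (SD, n = 3), so that the level at D2.5 was 17.5-fold lower than at E16.5 in KO cells and 7.80-fold lower in HT cells. E18.5 against E16.5 gave -1.27 in KO cells (SE 0.31, edgeR adjusted p = 0.0252) and -0.76 in HT cells (SE 0.31, adjusted p = 0.0966, not called). D2.5 against E18.5 gave -2.84 in KO cells (SE 0.33, edgeR adjusted p = 8.17e-07) and -2.19 in HT cells (SE 0.32, adjusted p = 1.30e-05). Piwil2 was at 1006 ± 33.8, 808 ± 87.2 and 221 ± 53.4 CPM in KO cells and at 869 ± 183, 746 ± 113 and 231 ± 73.6 CPM in HT cells at the 3 ages. It fell between E18.5 and D2.5, by 1.88 on the log2 scale in KO cells and by 1.69 in HT cells, which relative to the median of all genes came to -1.34 in KO and -1.19 in HT cells, both still called. Piwil1 fell in KO cells at D2.5 (-1.51, SE 0.33, edgeR adjusted p = 0.000707) and was at -0.73 in HT cells (adjusted p = 0.0571), with the 3 D2.5 HT libraries at 17.6, 16.9 and 34.2 CPM. Relative to the median of all genes these Piwil1 values were -0.97 and still called in KO cells (adjusted p = 0.0163) and -0.22 in HT cells. Over 27 alternatives the HT value ran from -1.73 to -0.22 and was called in 4. The KO effect on Piwil4 at E18.5 less that at E16.5 was -0.51 (edgeR unadjusted p = 0.249). At D2.5 less that at E18.5 it was -0.65 for Piwil4 and -0.78 for Piwil1 (edgeR adjusted p = 0.667 and 0.587). The steps of Piwil4 and Piwil1 were thus not called as different between genotypes.

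The ratio of the level of Piwil2 to that of Piwil4 was 1.48 ± 0.135, 3.27 ± 1.54 and 7.21 ± 5.27 in KO cells and 1.80 ± 0.309, 2.54 ± 0.290 and 3.55 ± 0.975 in HT cells at the 3 ages (ratio of CPM, SD, n = 3). At D2.5 the ratio ran from 2.96 to 13.1 in KO libraries, 2.82 to 4.66 in HT libraries and 2.10 to 8.84 in WT libraries, so the genotypes overlapped.

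Asz1, which encodes the GASZ scaffold on the mitochondrial surface, and Ddx4, the VASA helicase of the germ granule, had their lowest means at E18.5. Asz1 was at 257, 252 and 158 CPM at E16.5, 55.7, 82.5 and 81.6 CPM at E18.5 and 279, 221 and 279 CPM at D2.5 in KO cells. In HT cells it was at 287, 226 and 159 CPM at E16.5, 61.7, 72.6 and 87.6 CPM at E18.5 and 256, 325 and 314 CPM at D2.5. All E18.5 libraries lay below all libraries of the other ages. E18.5 against E16.5 was -1.59 in KO and -1.59 in HT cells (SE 0.24 each), and D2.5 against E18.5 was 1.82 in KO and 2.01 in HT cells (SE 0.24 each; edgeR adjusted p of 0.00340 or less in all 4). Ddx4 averaged 737 ± 169, 378 ± 36.4 and 588 ± 60.5 CPM in KO cells and 820 ± 262, 352 ± 79.2 and 682 ± 85.2 CPM in HT cells at the 3 ages. Its first step was -0.95 in KO (SE 0.22, edgeR adjusted p = 0.0217) and -1.21 in HT cells, and its second was 0.63 in KO and 0.96 in HT cells. Relative to the median of all genes the second step of Ddx4 was 1.17 in KO and 1.46 in HT cells, but with table totals, repeats included, as library sizes the second step was -0.08 in KO and -0.01 in HT cells. Under that scaling the median of all genes moved by -1.25 in KO and -1.49 in HT cells, while Asz1 still rose. In KO cells 4 of the 10 were called at the first step, and 2 to 6 when 1 library was left out. The falls of Piwil4 and Ddx4 in KO cells at E18.5 against E16.5 lost their call without E16.5 KO replicate 1 (adjusted p 0.130 and 0.145), E16.5 KO replicate 2 or E18.5 KO replicate 1.

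Gtsf1 was next followed with age in each genotype. In KO cells it fell at E18.5 against E16.5 (-1.53, SE 0.24, edgeR adjusted p = 0.00340) and was at 0.56 at D2.5 against E18.5 (SE 0.24, adjusted p = 0.0532), which was 1.09 and called relative to the median of all genes (adjusted p = 0.000707) and -0.17 with table totals as library sizes. In HT cells it was at -0.08 at the first step (SE 0.23, edgeR adjusted p = 0.834) and fell by 0.74 at the second (SE 0.24, adjusted p = 0.0126), which was -0.23 relative to the median of all genes and then not called. That fall in HT cells also lost its call without E18.5 HT replicate 2 or 3 or D2.5 HT replicate 1 or 2 (adjusted p up to 0.0917). Over 27 alternatives it ran from -1.74 to -0.23 and was called in 22. The difference between genotypes in these steps is the difference of the KO effect between ages given above, which edgeR did not call.

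Mov10l1 averaged 1091 ± 54.5, 789 ± 28.3 and 475 ± 77.9 CPM in KO cells and 983 ± 124, 670 ± 42.8 and 498 ± 82.8 CPM in HT cells over the 3 ages. Its second step was -0.74 in KO (edgeR adjusted p = 0.000726) and -0.43 in HT cells (adjusted p = 0.0292), which came to -0.20 and 0.08 relative to the median of all genes and was then called in neither. Its first step was called in HT cells (-0.54, edgeR adjusted p = 0.0317) and not in KO cells (-0.45, adjusted p = 0.0974), where 8 of 27 alternatives called it. The KO effect on Mov10l1 at E18.5 less that at E16.5 was 0.09 (edgeR unadjusted p = 0.689), so a difference between genotypes was not called. Both Mov10l1 calls in HT cells were lost when single libraries were left out, E18.5 HT replicate 1, 2 or 3 among them (adjusted p up to 0.0745 at the first step and 0.267 at the second). Henmt1 fell in KO cells at the second step (-1.32, edgeR adjusted p = 0.00249) and was at -0.57 in HT cells. Relative to the median of all genes these values came to -0.78 in KO (adjusted p = 0.0526, not called) and -0.07 in HT cells. Over 27 alternatives the second step of Henmt1 ran from -2.02 to -0.78 in KO cells (called in 26). In HT cells it ran from -1.56 to -0.07 (called in 1). The KO effect on Henmt1 at D2.5 less that at E18.5 was -0.74 (edgeR adjusted p = 0.628), so a difference between genotypes was not called. Mael was not called at either step, with values from -0.47 to -0.03, and Pld6 likewise, with values from -1.10 to 0.12. Over 27 alternatives the second step of Mael ran from -1.45 to 0.05 in HT cells (called in 2). In KO cells it ran from -0.99 to 0.25 (called in 1), and 1 of 27 called the first step there. For Pld6, 1 of 27 alternatives called each step in KO cells.

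**Figure D4:**
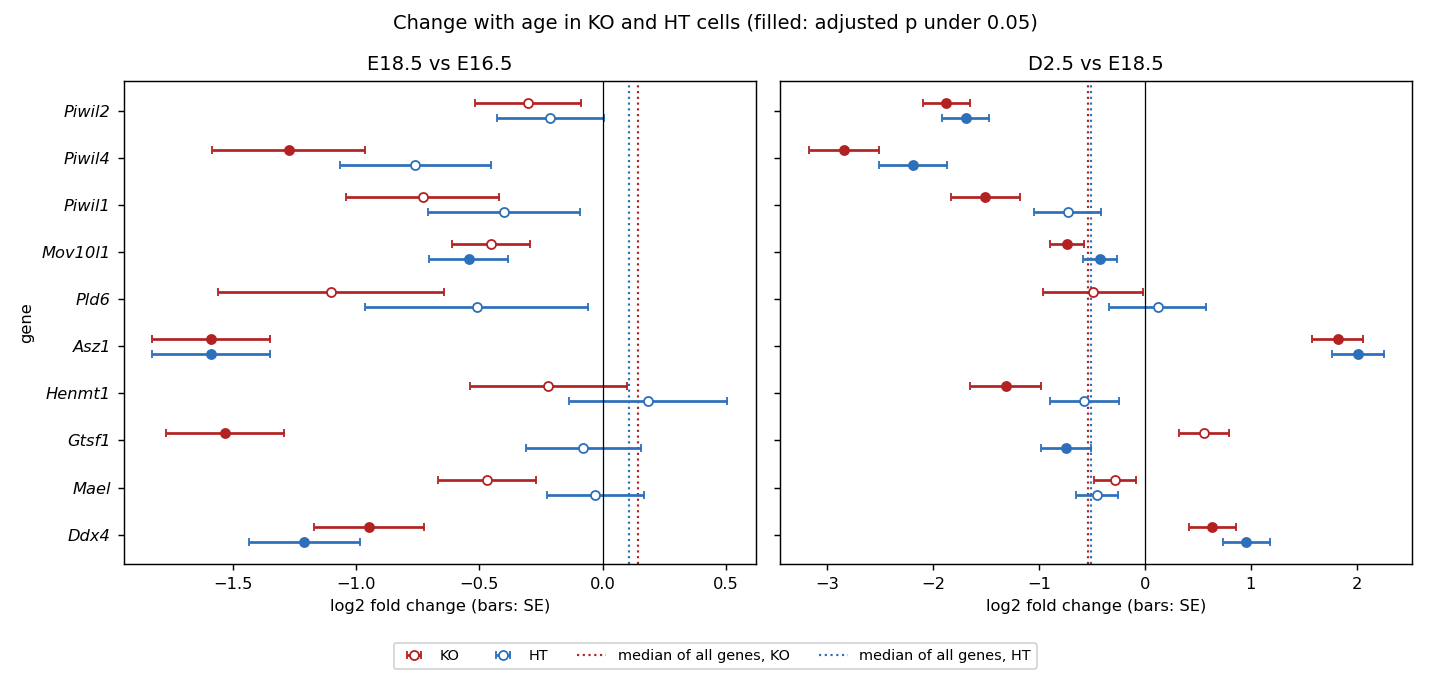
Log2 fold change of the 10 genes between ages in KO and HT cells (bars: SE; filled points: adjusted p under 0.05; dotted lines: median of all genes). Asz1 and Ddx4 are below 0 at E18.5 against E16.5 and above 0 at D2.5 against E18.5 in both genotypes, while Piwil2 and Piwil4 lie left of the dotted lines at D2.5.

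Other genes of the pathway were read from 2 further lists. Of 20 more piRNA pathway genes (19 tested at E18.5 and at D2.5), most of them Tudor domain proteins and processing factors, none was called between KO and HT cells at E16.5, E18.5 or D2.5 (medians 0.00, 0.03 and -0.15). At E18.5 against E16.5, 7 fell and 1 rose in KO cells (median -0.59) and 10 fell and 1 rose in HT cells (median -0.69). The medians of all genes were 0.14 and 0.11. Of all genes, 2.9% were called lower and 1.65% higher at this step in KO cells, and 8.39% and 4.81% in HT cells. Tdrkh, a Tudor protein that recruits PIWI proteins to mitochondria, fell in both (-1.01 in KO and -1.34 in HT cells), and Tdrd6 rose in both (2.42 and 2.55). At D2.5 against E18.5, 6 of the 20 fell and 2 rose in KO cells, where 34.2% of all genes were called lower and 21.1% higher. In HT cells 8 fell and 3 rose, where 33.4% of all genes were called lower and 21.4% higher. Among them Tdrd9, the helicase partner of PIWIL4, fell by 2.79 in KO and by 2.25 in HT cells. Mybl1, the transcription factor A-MYB of later piRNA genes, rose by 1.25 in KO and 0.93 in HT cells.

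Of 10 genes for silencing downstream of piRNAs, Cbx5, which encodes heterochromatin protein HP1 alpha, was the 1 called between KO and HT cells, at E18.5 (0.60, SE 0.15, edgeR adjusted p = 0.0490). Dnmt3l, the cofactor of new DNA methylation, was at 280, 175 and 3.97 CPM in KO cells and 204, 185 and 3.93 CPM in HT cells at the 3 ages (group means). It fell by 5.46 in KO and by 5.57 in HT cells between E18.5 and D2.5. Cell cycle genes moved at the same steps. Of 19, 4 fell in KO and 13 in HT cells at E18.5 against E16.5 (2.9% and 8.39% of all genes did). For the KO effect at E18.5 less that at E16.5, 0 of the 19 were called, in a test that called 0% of genes. At D2.5 against E18.5, 16 rose in KO and 15 in HT cells (21.1% and 21.4% of all genes did). The part of cell cycle and cell type differences between ages in the values of the 10 genes was not tested.

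The genes most like each of the 10 in pattern were those with the highest Pearson r of log2(CPM + 1) over the 21 libraries, among 14338 genes. The libraries fall into 3 ages and share depth differences, so each r also holds differences between ages and is given as a description. Piwil4 was closest to Phf13 (r = 0.98), Piwil2 to Aimp2 (0.99), Asz1 to Ckap5 (0.97), Ddx4 to Ep400 (0.96) and Mov10l1 to Zbtb43 (0.96). For Piwil2, 793 genes had an r above 0.9, and for Asz1 132. For Gtsf1 none did, and its nearest were Wdr41 (0.81) and Cyb5a (0.77). Pld6, the gene with the fewest counts, also had none, with Rab11b nearest (0.84).

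In GENCODE M21, exons of Piwil4 share 137 bases with the antisense gene Gm10706 and exons of Henmt1 share 392 bases with Gm9857 on the opposite strand. Whether the counting used strand is not given in the sources used here, so reads of these partners cannot be told apart in those stretches. The other 8 genes share no exon bases with another gene there.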

How the data were processed

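Oct4-GFP positive male germ cells were sorted, RNA was isolated with a PicoPure kit and libraries were built with NuGEN Ovation kits, per the labels. The authors deposited read counts per gene and repeat name on build mm9. The submitters' processing notes list STAR, Bowtie, featureCounts and edgeR, without the role or version of each. The 1217 repeat rows (41.9% to 69.4% of counts) were left out of library sizes. From the gene counts, edgeR 4.0.16 in R 4.3.3 gave two-sided quasi-likelihood tests after filterByExpr (count 10, total 15) and TMM scaling. P-values were adjusted by Benjamini-Hochberg over all genes tested (threshold 0.05), and each SE is the fold change over the root of F. Separate fits held the 6 libraries of E16.5, the 6 of E18.5 and the 9 of D2.5, and 1 fit of 18 libraries held the age contrasts and their differences. The fits were tested on simulated counts. Genes were named by membership and, for likeness, by the highest Pearson r. Members, lists and tests were chosen with earlier results of these data known; the difference of the KO effect between D2.5 and E16.5 and the values relative to the median of all genes were added after seeing the data. Alternatives were relative log expression (RLE) factors, table totals, other filters, DESeq2 1.42.0, limma-voom (limma 3.58.1), a replicate block, other sets of libraries and leaving out each library.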

Additional observations from a re-analysis of the deposited data

Results flagged for a closer look

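Piwil4 lay above HT in every KO library at E16.5 and below HT in every KO library at D2.5, which drew attention as opposite directions at 2 ages. The KO effect at D2.5 less that at E16.5 was -1.16 on the log2 scale (SE 0.44, unadjusted p = 0.0155), and it was not called over all 18815 genes (edgeR adjusted p = 0.293). That test called 20 genes and had 2340 at an unadjusted p under 0.05. The Piwil4 levels were 740, 690 and 623 CPM in KO cells against 312, 614 and 581 CPM in HT cells at E16.5, and 57.7, 21.2 and 38.5 CPM in KO cells against 67.4, 63.8 and 62.0 CPM in HT cells at D2.5. In the same test Piwil1 was at -1.11, Henmt1 at -1.15 and Pld6 at -1.20, with edgeR adjusted p of 0.319, 0.317 and 0.475. The test was added after seeing the data.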

How the results depend on the processing

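Of 2370 recomputed values of single genes, 2260 kept their direction and side of the threshold or moved by less than 1 SE. For 3 a called value changed sign, and the new value was not called. The others lost a call with the sign kept (36), gained one (40) or moved (31). Gtsf1 in KO against HT cells at E18.5 was called lower in all 13 alternatives, from -1.34 to -1.09. With table totals as library sizes the rise of Ddx4 at D2.5 against E18.5 became -0.075 in KO and -0.015 in HT cells, and relative to the median of all genes the fall of Mov10l1 in HT cells became 0.080. The number of the 10 genes called was 1 with DESeq2 (Gtsf1) and 0 as reported for the KO effect at D2.5 less that at E18.5. In KO cells at E18.5 against E16.5 it ran from 2 to 6 over the left-out libraries. Gtsf1 in KO cells at D2.5 against E18.5 (0.56) passed the threshold in 18 of 27 alternatives. The cause of these moves was not tested.

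Over all genes, calls at D2.5 in KO against HT cells (22 as reported) were 126 with DESeq2, 109 without a filter on low counts, 41 with a stricter filter and 14 without HT replicate 2. In KO against WT cells (31) they were 123, 110 and 48 under the same settings and 19 without WT replicate 3. HT against WT called 1, with 0 to 4 over the alternatives, and KO against HT at E16.5 called 1, with 6 by DESeq2. At E18.5 (389) the calls numbered 237 when KO replicate 3 was left out, and 197 and 251 when HT replicate 2 or 3 was. At E18.5 against E16.5, DESeq2 and limma-voom called 2135 and 2617 genes in KO cells (855) and 3788 and 5437 in HT cells (2483), and taken relative to the median of all genes 1436 in KO cells. Leaving out 1 library gave 56 (without E16.5 KO replicate 1) to 2053 (without E16.5 HT replicate 1) in KO cells and 561 (without E16.5 HT replicate 1) to 5074 (without E16.5 HT replicate 3) in HT cells. The KO effect at D2.5 less that at E18.5 (10) had 256 calls with DESeq2 and 4 (without E18.5 KO replicate 3) to 30 (without D2.5 KO replicate 2) over left-out libraries. No alternative called another of the 10 genes between KO and HT cells.

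Replicate numbers are shared between groups, but samples with the same number did not deviate together in every pair (r of 0.63, -0.071 and 0.78 at E16.5, 0.25, 0.16 and 0.097 at E18.5, and 0.033, -0.022 and 0.020 at D2.5), so they were not taken as pairs. At E18.5, but not at E16.5 or D2.5, each KO library correlated best with the HT library of its own number. From the HT side this did not hold, as HT replicate 3 correlated better with KO replicate 2 (r = 0.13) than with KO replicate 3 (0.097). Any link by number is a hint from the data and not the design. With the replicate block Gtsf1 at E18.5 was -1.15 and 531 genes were called, 2 genes were called at E16.5, and the block changed no number of the 10 called. Depth limits Pld6, with 10 to 53 counts per D2.5 library.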
